A study of Mus musculus with 12 samples.

Results

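The tubby-like protein family of the mouse has 5 members, Tub, Tulp1, Tulp2, Tulp3 and Tulp4. They were taken by gene symbol from the count tables of mature sperm and of juvenile testes, and all 5 had an entry in both, among 51826 entries for sperm and 23502 for testes. The study asked how Xap5l (listed as Fam50b) and Xap5 (listed as Fam50a) act on gene expression in male germ cells. Sperm came from the cauda epididymis of P56 mice, either WT or carrying a global Xap5l KO made with CRISPR/Cas9 on the C57BL/6J background. Whole testes came from P16 mice, either WT or Xap5 cKO, in which floxed Xap5 is removed in male germ cells by a Cre expressed from Stra8 (Stra8-EGFPCre). The study describes Xap5 fl/Y males as the controls of the cKO, whereas the labels of these libraries give WT. Each of the 4 groups had 3 libraries, described as biological replicates, so p-values set a genotype difference against the spread between these libraries.

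Tubby-like proteins share a C-terminal tubby domain that binds phosphoinositides of the cell membrane. Tub, the founding member, is mutated in the obese tubby mouse and acts in neurons and sensory cells, and Tulp1 is a photoreceptor protein. Tulp3 binds the IFT-A complex, which moves along cilia, and brings receptors and other membrane proteins into the cilium. Tulp4, the largest member, carries WD40 repeats and a SOCS box, a motif through which proteins join cullin ubiquitin ligases. Tulp2 is expressed mainly in male germ cells and is needed for the sperm flagellum.

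The ends of the reading frames are shown because the tubby domain closes there. The sequences are the last 60 coding bases with the stop codon of the longest coding transcript in the GENCODE annotation of GRCm38. Capitals mark bases identical to Tub at the same distance from the stop codon, with no gaps allowed, and Tub itself is in lower case.
Tub: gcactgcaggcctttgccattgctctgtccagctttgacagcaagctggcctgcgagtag
Tulp1: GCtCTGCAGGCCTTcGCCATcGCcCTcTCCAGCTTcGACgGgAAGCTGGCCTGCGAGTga
Tulp2: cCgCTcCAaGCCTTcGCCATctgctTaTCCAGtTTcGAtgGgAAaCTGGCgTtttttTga
Tulp3: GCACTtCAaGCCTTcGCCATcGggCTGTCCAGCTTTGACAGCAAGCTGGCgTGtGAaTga
Tulp4: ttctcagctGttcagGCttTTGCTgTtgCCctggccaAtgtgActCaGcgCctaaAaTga
Tulp1 and Tulp3 matched Tub at 83.3% and 81.7% of these positions, Tulp2 at 58.3% and Tulp4 at 30.0%. A gapped alignment was not made, so the share for Tulp4, whose end is offset from that of Tub, is no measure of how alike the genes are. Over whole transcripts no stretch of 31 bases was shared between members, except 7 such stretches shared by Tulp3 and Tulp4.

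Tulp2 lies on the plus strand of chromosome 7 (chr7:45481877-45523632, GRCm38), and its longest coding transcript has 14 exons and 562 codons. Tub is on the same chromosome (chr7:108950338-109034460, plus strand, 12 exons, 505 codons). Tulp1 (chr17:28351515-28365222, minus strand, 15 exons, 543 codons) and Tulp4 (chr17:6106437-6251128, plus strand, 14 exons, 1547 codons) share chromosome 17. Tulp3 is on chromosome 6 (chr6:128321161-128355851, minus strand, 11 exons, 460 codons).

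Transcripts of Tulp2 begin in 2 clusters, with 4 and 7 of its 11 annotated transcripts, and the RefSeq starts in these clusters lie 27.4 kb apart. RefSeq has 3 starts of Tulp2, of which the first 2 are neighbouring bases. The 250 bases before the first of these and before the start in the second cluster are shown because the counts sum transcripts from both clusters (GRCm38.p6, plus strand). The first window is chr7:45486012-45486261 and the second is chr7:45513456-45513705. Capitals mark matches to a CCAAT box (CCAAT) or a TATA box (TATAAA) on either strand, and none of them overlap.
Tulp2 first start: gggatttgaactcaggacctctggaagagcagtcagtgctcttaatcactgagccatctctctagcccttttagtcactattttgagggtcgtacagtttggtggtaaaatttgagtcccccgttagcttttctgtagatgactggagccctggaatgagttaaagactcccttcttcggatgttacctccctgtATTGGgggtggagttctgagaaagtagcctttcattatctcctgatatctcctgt
Tulp2 second start: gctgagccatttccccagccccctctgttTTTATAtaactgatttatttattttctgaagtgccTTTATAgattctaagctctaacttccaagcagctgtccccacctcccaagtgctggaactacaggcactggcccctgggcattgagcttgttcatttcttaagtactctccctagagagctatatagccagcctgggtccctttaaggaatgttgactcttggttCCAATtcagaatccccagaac
The first window holds a single CCAAT box, on the minus strand, and 3 CpG. The second holds a CCAAT box on the plus strand, TATA box letters on the minus strand (TTTATA) at 2 places, and 0 CpG. Among windows of this length before all RefSeq starts, 33.8% held a CCAAT box and 12.4% a TATA box, and the median number of CpG was 6. GC content was 46.0% in both windows, against a median of 52.4% over all windows. The GC box (GGGCGG, both strands), present in 32.7% of all windows, was found before starts of Tub, Tulp3 and Tulp4. Neither window of Tulp2, nor that of Tulp1, nor a second window of Tulp4 held it. The cyclic AMP response element (TGACGTCA), its shorter form (TGACG), a forkhead motif (GTAAACA) and a part of the X-box (GTTGCC) were not found in a window of any member, against 1.55%, 17.8%, 3.17% and 10.4% of all windows. These are matches of letters, not sites.

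The first window lies wholly inside an exon of Dhdh, a dihydrodiol dehydrogenase gene on the opposite strand. Of the 3150 exonic bases of Tulp2, 399 (12.7%) are also exonic in genes of the opposite strand, which are Dhdh with 387 bases, Gm45808 with 165 and Ppp1r15a with 12. The library kit does not mark strand, and the use of strand in counting is not given in the sources used here, so reads from these bases cannot be assigned by strand. The opposite-strand overlap was 14.4% of exonic bases for Tub (Gm26599 and Ric3) and 5.30% for Tulp4 (Gm5812, a pseudogene that resembles Fbl). Tulp1 and Tulp3 share no exonic bases with another gene.

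**Figure D1:**
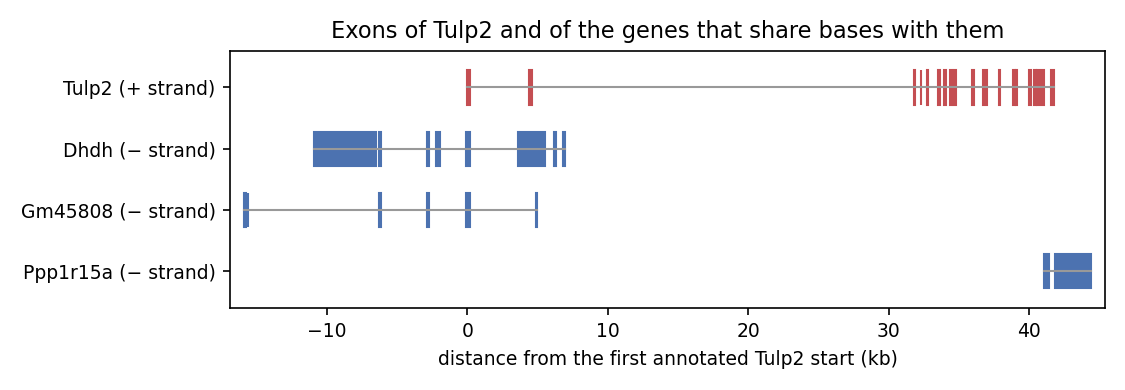
Annotated exons (boxes) of Tulp2 on the plus strand and of 3 genes on the minus strand, by distance in kb from the first annotated Tulp2 start, with a line over each gene's exons. Dhdh and Gm45808 meet the first exons of Tulp2 and Ppp1r15a lies at its end.

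The libraries held between 32251198 and 52308452 counts. Fam50b had 419 to 574 counts in WT sperm and 8 to 23 in Xap5l KO sperm (log2 fold change -5.15, adjusted p = 0.0118). Fam50a counts ran from 811 to 988 in WT testes but still from 616 to 673 in those of Xap5 cKO mice, with a log2 fold change of only -0.33 (adjusted p = 0.0495), measured in whole testes. Fam50b was lower in those testes (log2 fold change -6.48, adjusted p = 8.09e-05), and Fam50a was lower in Xap5l KO sperm (-0.76, adjusted p = 0.0393), below the fold threshold. Mitochondrial entries took 10.5% to 27.4% of the counts of the sperm libraries. Of the marker lists, that of elongating spermatids and sperm was highest there (summed level 44899 to 129871 CPM). Epididymal epithelium markers stood at 3929 to 7264 CPM, nearly all of it from a single gene, Crisp1. Of the 5 genes on that list, 1 or 2 were at 0 in each sperm library. Leukocyte markers, mostly Cd52, stood at 2581 to 4977 CPM and erythroid markers at 1643 to 22836 CPM. In testes the same sperm markers summed to 4.70 to 5.84 CPM in all libraries. WT testes replicate 3 stood nearer to the Xap5 cKO libraries (correlation of log2 CPM 0.928 to 0.933) than replicates 1 and 2 did (0.897 to 0.903), and had the lowest pachytene markers of the WT testes (585 CPM, against up to 1286).

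Tulp2 was the most abundant family member in all 4 groups. Levels between genes are compared in CPM, counts scaled to library size by the TMM method, per kb of annotated exons. In WT sperm Tulp2 stood at 26.3 ± 7.74 CPM per kb (SD, n = 3), Tulp4 at 11.8 ± 3.82, Tulp3 at 0.458 ± 0.122 and Tub at 0.270 ± 0.0743. In WT testes the order was the same, with Tulp2 at 39.7 ± 2.14 CPM per kb, Tulp4 at 10.2 ± 0.200, Tulp3 at 5.08 ± 0.637 and Tub at 2.95 ± 0.110. Neighbours in these orders did not overlap between libraries. Tulp2 stood at the 94.0th percentile of the tested genes, per kb, in WT sperm and at the 92.0th in WT testes, and Tub at the 15.4th and 33.5th. The sperm and testis tables were scaled separately, so levels set across them are approximate.

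In the mutants the order below Tulp2 was closer in sperm and differed in testes. In Xap5l KO sperm Tulp2 stood at 60.1 ± 9.45 CPM per kb and Tulp4 at 11.5 ± 2.69, and the ranges of Tulp3 (0.390 ± 0.0304) and Tub (0.370 ± 0.233) overlapped. In Xap5 cKO testes Tulp3 (8.10 ± 0.147 CPM per kb) stood above Tulp4 (7.48 ± 0.476), the reverse of WT testes, and neither pair overlapped. Tulp2 there stood at 59.2 ± 2.88 CPM per kb and Tub at 0.906 ± 0.162.

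**Figure D2:**
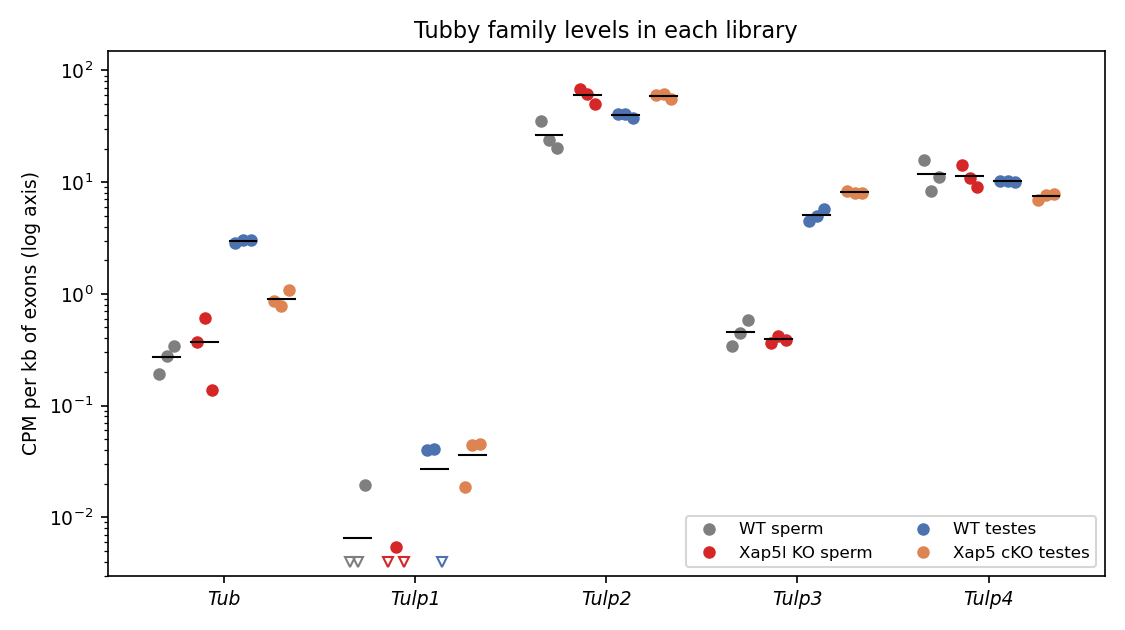
Level of each family member in CPM per kb of exons on a log axis, 1 point per library and a bar at the mean of 3 libraries, in 4 groups. Open triangles mark libraries with 0 counts. Tulp2 lies highest in every group, from a mean of 26.3 in WT sperm to 60.1 in Xap5l KO sperm, and Tulp1 lies lowest.

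Tulp1 was at or near the detection limit. WT sperm libraries held 0, 0 and 6 counts, Xap5l KO sperm libraries 0, 2 and 0, WT testes libraries 9, 10 and 0, and Xap5 cKO testes libraries 4, 10 and 10. A count of 0 allows up to 3 counts, for counting error only, and no fold change is given. Tulp1 did not pass the filter on low counts in either tissue, so 4 of the 5 members were tested. A further entry of the testis table, Tulp1-2, held 5, 6 and 0 counts in the WT libraries, against 5, 10 and 10 for Xap5 cKO.

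In Xap5l KO sperm, Tulp2 was the tested family member that passed the test. A gene counted as upregulated or downregulated when its change exceeded 2-fold with an adjusted p below 0.05 in the quasi-likelihood test of edgeR, with Benjamini-Hochberg adjustment over all 20945 genes. Of the 4 tested members 1, Tulp2, was upregulated and 0 were downregulated, against 7.59% and 1.27% of all tested genes (8.86% in either direction). Without the fold threshold the members gave the same counts, against 9.02% of all genes higher and 3.07% lower. Before adjustment, 1 of the 4 also had a p-value under 0.05 (edgeR), for which no share of all genes was computed. DESeq2 on the same libraries likewise called 1, where 5.06% of 37998 genes were upregulated and 0.895% downregulated.

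Tulp2 stood at 110.4, 75.0 and 63.6 CPM in the WT sperm libraries and at 217, 194 and 158 CPM in the Xap5l KO libraries. Each Xap5l KO library lay above each WT library, as was so for 38.3% of all tested genes in either direction. The log2 fold change was 1.19 (standard error 0.266, adjusted p = 0.0248, edgeR), at the 91.2nd percentile of all tested genes. Without WT replicate 2 or 3, or without Xap5l KO replicate 1 or 2, Tulp2 was no longer called. Adjusted p-values then reached 0.129 and the log2 fold change ranged from 1.02 to 1.44 over the 6 fits. In 3 of these 4 fits the number of upregulated genes in the whole table was 1. Round spermatid markers moved with Tulp2, with 5 of 6 upregulated and a summed level of 461 to 761 CPM in WT and 893 to 1096 CPM in Xap5l KO sperm. The summed level of leukocyte markers was 4390 to 4977 CPM in WT libraries, against 2581 to 3149 CPM in those without Xap5l. Most of it came from a single gene, Cd52, with group means of 3993 (WT) and 2519 CPM (Xap5l KO). The sum thus mainly follows Cd52, which did not pass the test (log2 fold change -0.66, adjusted p = 0.170, edgeR). Of the 5 leukocyte markers 1, Laptm5, was downregulated (log2 fold change -1.02, adjusted p = 0.0424, edgeR), against 1.27% of all tested genes. Lyz2 (-1.41), Csf1r (-0.97) and Ptprc (-0.87) were also lower but did not pass the test. Each of the 5 had no overlap between the groups, as for 38.3% of all tested genes. No marker of the round spermatid or leukocyte list was at 0 in a sperm library. The part of any of these cell types in the result was not tested. In bulk RNA a different number of cells of a type and a different amount of RNA per cell cannot be told apart.

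The antisense neighbours of Tulp2 did not move upward with it. Dhdh stood at 6.92, 6.68 and 6.50 CPM in WT sperm and at 5.23, 4.12 and 4.19 in Xap5l KO sperm (log2 fold change -0.57, adjusted p = 0.0978). Ppp1r15a, a stress-induced regulator of a phosphatase, stood at 36.1, 27.3 and 34.2 CPM in WT sperm and at 19.0, 16.9 and 14.0 CPM in Xap5l KO sperm (log2 fold change -0.97, adjusted p = 0.0231), below the fold threshold. Gm45808 had between 0 and 17 counts in every sperm library. In each library Tulp2 had more counts than these 3 genes together.

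Tulp4, the second most abundant member in sperm, stood at 288, 152 and 200.03 CPM in WT libraries and at 259, 197 and 164 CPM in Xap5l KO libraries. The ranges overlapped and the log2 fold change was -0.04, with a 95% interval from -0.70 to 0.61 and an adjusted p of 0.930 from edgeR. Its sign turned under other scalings, so no direction is given. Gm5812, the overlapping pseudogene, varied from 143 to 1135 counts among the sperm libraries, and 25.9% of the 31-base stretches of Tulp4 occur in other genes, so its level is uncertain.

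Tulp3 stood at 3.22, 4.14 and 5.48 CPM in WT sperm and at 3.37, 3.94 and 3.64 CPM in Xap5l KO sperm. The ranges overlapped, with a log2 fold change of -0.23 (95% interval -0.82 to 0.36, adjusted p = 0.554, edgeR). Tub stood at 1.61, 2.33 and 2.85 CPM in WT sperm and at 3.11, 5.06 and 1.15 CPM in Xap5l KO sperm, so that the mutant libraries lay on both sides of the WT range. Its log2 fold change was 0.45 (95% interval -0.61 to 1.51, adjusted p = 0.521, edgeR), and without Xap5l KO replicate 2 it was -0.11. The intervals of Tub, Tulp3 and Tulp4 do not show that these genes were unchanged.

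In Xap5 cKO testes, the members moved in different directions. Of the 4 tested members, 0 were upregulated and 1, Tub, was downregulated, against 4.15% and 10.9% of 16821 tested genes (15.1% in either direction). With an adjusted p below 0.05 and any fold, 2 members were higher and 2 lower, where 25% and 28.1% of all genes were. The libraries of the groups did not overlap for any of the 4, as for 62.3% of all tested genes.

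Tub stood at 23.7, 25.3 and 25.3 CPM in WT testes and at 7.21, 6.49 and 9.11 CPM in Xap5 cKO testes. The WT libraries lay within a narrow range and every cKO library lay far below it. The log2 fold change was -1.70 (standard error 0.160, 95% interval -2.06 to -1.34, adjusted p = 4.47e-05, edgeR), at the 5.85th percentile of all tested genes. It was called in all 6 fits with 1 library left out. Ric3, a chaperone gene of acetylcholine receptors that shares 149 exonic bases with Tub, was higher in the cKO by 0.33 (log2 fold change, adjusted p = 0.00526), opposite to Tub.

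Tulp4 was also lower, at 186, 185 and 179.6 CPM in WT testes and at 125, 139.6 and 140.3 CPM in Xap5 cKO testes. Its log2 fold change was -0.44 (standard error 0.0637, adjusted p = 3.93e-04, edgeR), below the fold threshold. Fbl, which the pseudogene inside Tulp4 resembles, was lower in the cKO as well (log2 fold change -0.23, adjusted p = 0.0204, edgeR).

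Tulp2 and Tulp3 were higher in Xap5 cKO testes, both below the fold threshold. Tulp2 stood at 129.6, 128 and 117 CPM in WT testes and at 189, 194 and 176 CPM in cKO testes. The log2 fold change was 0.58 (standard error 0.0660, adjusted p = 1.17e-04, edgeR), at the 80.6th percentile of all tested genes. Dhdh (log2 fold change 0.08, adjusted p = 0.730) and Ppp1r15a (0.16, adjusted p = 0.286) did not pass the same test.

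Tulp3 stood at 42.1, 46.4 and 53.9 CPM in WT testes and at 77.2, 74.6 and 75.3 CPM in Xap5 cKO testes. The cKO libraries were closely grouped, and WT replicate 3, the library that stood apart, was the nearest to them. The log2 fold change was 0.67 (standard error 0.0983, adjusted p = 4.37e-04, edgeR), at the 84.7th percentile of all tested genes. Leaving out each library gave 0.59 to 0.77 for Tulp3 and 0.53 to 0.61 for Tulp2.

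Markers of cell types moved with the genotype in testes, and their part in these differences was not tested. All 6 pachytene markers were downregulated (median log2 fold change -5.31), with summed levels of 585 to 1286 CPM in WT and 32.1 to 43.6 CPM in cKO testes. Of 6 leptotene and zygotene markers 5 were downregulated. Sertoli cell markers summed to 780 to 877 CPM in WT and 1326 to 1396 CPM in cKO testes, where 5 of 6 were higher with an adjusted p below 0.05 and 1 was upregulated. Peritubular myoid markers summed to 489 to 643 and 698 to 764 CPM, and round spermatid markers to only 6.61 to 11.0 and 10.2 to 12.1 CPM. Leukocyte markers summed to 65.6 to 93.7 CPM in WT and 139 to 188 CPM in cKO testes, with 3 of 5 upregulated. Of 5 Leydig cell markers 2 were upregulated (median log2 fold change 1.01). Spermatogonia markers summed to 585 to 687 CPM in WT and 436 to 467 CPM in cKO testes, where 5 of 6 were lower with an adjusted p below 0.05. The remaining one, Gfra1, was higher (log2 fold change 0.56, adjusted p = 0.0321, edgeR). Of all tested genes in testes, 4.15% were upregulated and 10.9% downregulated. By the adjusted p alone, 25% were higher and 28.1% lower.

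**Figure D3:**
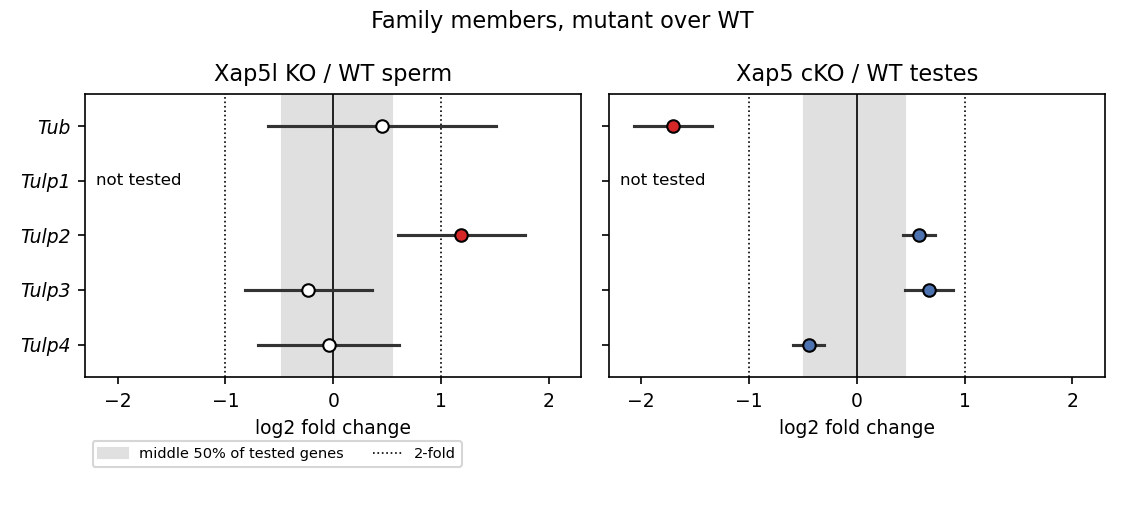
Log2 fold change of each family member, mutant over WT, with its 95% interval, for sperm (left) and testes (right). Red points passed an adjusted p-value of 0.05 and 2-fold (dotted lines), blue points the p-value only and white points neither, and the grey band holds the middle of all tested genes. Tulp2 is the red point in sperm (1.19) and Tub the red point in testes (-1.70).

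**Figure D4:**
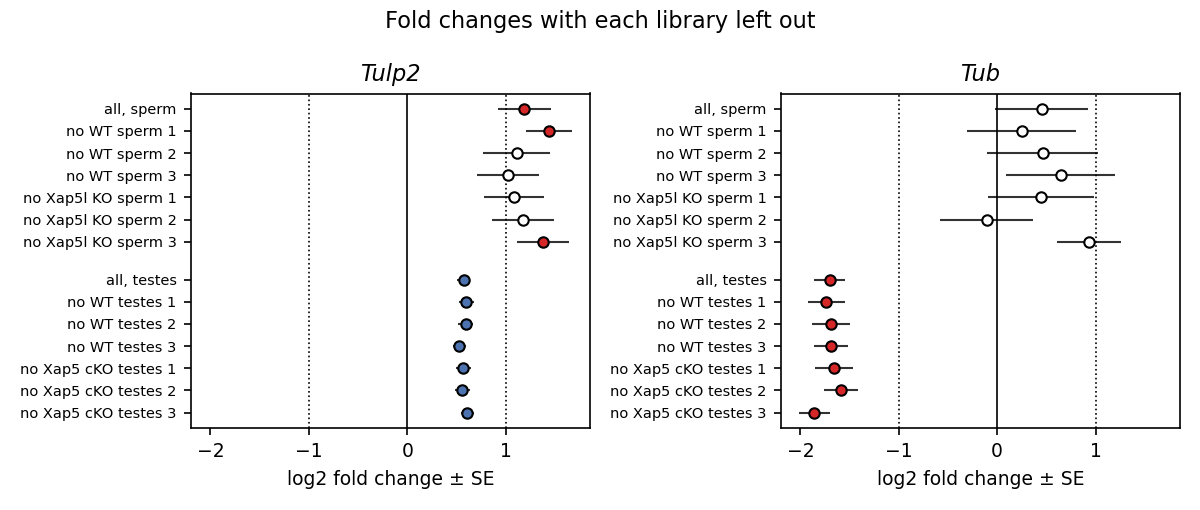
Log2 fold change with its standard error of Tulp2 (left) and Tub (right), with all libraries and with each library left out in turn, in the colours of the plot of fold changes. Tulp2 in sperm runs from 1.02 to 1.44 and is called in 2 of 6 such fits, Tub in testes runs from -1.86 to -1.59 and is called in all 6.

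The share of each member in the summed level of the family, per kb and within a library, needs no scaling between libraries. Tulp2 took 67.7 ± 4.83% (SD, n = 3) in WT sperm, 83.2 ± 1.06% in Xap5l KO sperm, 68.5 ± 1.75% in WT testes and 78.1 ± 1.23% in Xap5 cKO testes. Its share was thus larger in the mutant of each tissue. In sperm the rest was nearly all Tulp4 (30.3 ± 4.48% in WT and 15.7 ± 1.23% in Xap5l KO), while in testes Tulp3 took 8.79 ± 1.36% in WT and 10.7 ± 0.423% in cKO. The share of Tub in testes was 5.10 ± 0.295% in WT and 1.20 ± 0.258% in cKO.

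**Figure D5:**
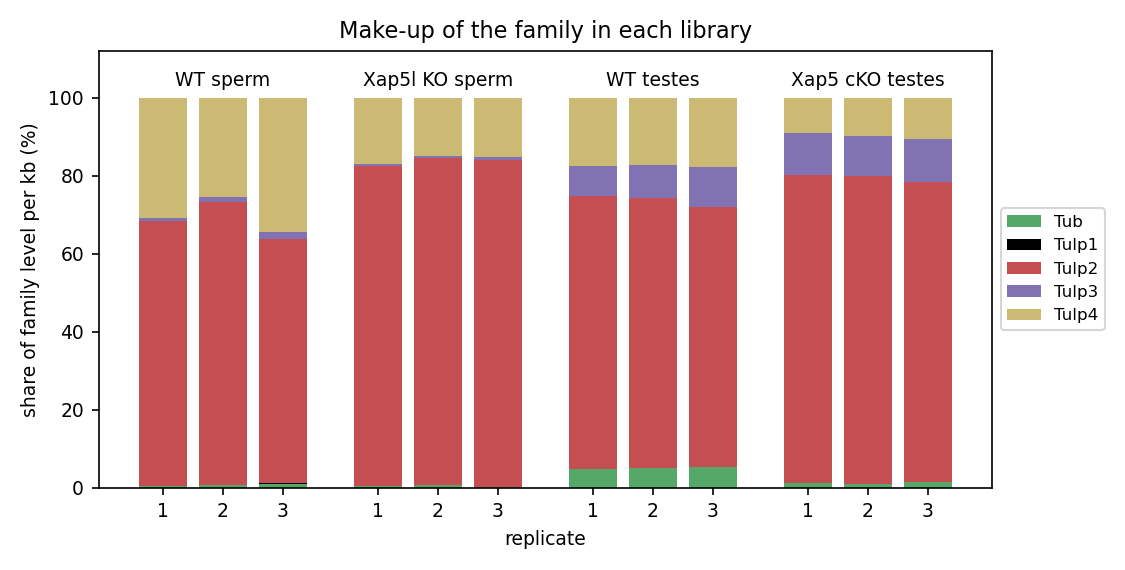
Share of each family member in the summed CPM per kb of the family, in percent, 1 bar per library. The red part, Tulp2, is larger in each Xap5l KO library than in each WT sperm library and larger in each Xap5 cKO library than in each WT testis library.

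The ratio of Tulp2 to each paralogue within a library tested the comparison directly, in 6 tests with an exact two-sided permutation test over 20 splits, which cannot give a p-value below 0.1. In sperm Tulp2 over Tulp4 was 2.20, 2.83 and 1.82 in WT and 4.78, 5.64 and 5.51 in Xap5l KO libraries, per kb. The groups did not overlap, and the log2 ratio differed by 1.24 (exact p = 0.1, adjusted p = 0.15). Tulp2 over Tulp3 differed by 1.41 (exact p = 0.1, adjusted p = 0.15), also with no overlap, and Tulp2 over Tub by 0.96 with overlap (exact p = 0.2, adjusted p = 0.24).

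In testes Tulp2 over Tub was 14.6, 13.5 and 12.3 in WT and 70.0, 79.5 and 51.5 in Xap5 cKO libraries, per kb. This was a 4.90-fold higher ratio in the cKO, a log2 difference of 2.29 (exact p = 0.1, adjusted p = 0.15). Tulp2 over Tulp4 was 3.99, 3.98 and 3.75 in WT and 8.68, 7.95 and 7.20 in cKO libraries, a log2 difference of 1.02 (exact p = 0.1, adjusted p = 0.15). Tulp2 over Tulp3 was 9.13, 8.20 and 6.46 in WT and 7.28, 7.69 and 6.94 in cKO libraries, and the groups overlapped (log2 difference -0.11, exact p = 0.6, adjusted p = 0.6). In the ratio of Tulp2 to Tulp4 the genotypes thus did not overlap in either tissue. The same held against Tulp3 in sperm and against Tub in testes. Of single genes, 38.3% in sperm and 62.3% in testes did not overlap either, and other gene ratios were not examined. The design cannot reach the adjusted threshold, so these tests cannot decide whether the ratios differed.

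The IFT-A subunits, partners of Tulp3, had more calls in testes than in sperm, a difference that was not tested. Of the 6 subunits of the IFT-A complex, 1 was upregulated and 0 downregulated in Xap5l KO sperm (median log2 fold change 0.83, all genes -0.08), where 7.59% and 1.27% of all tested genes were. In testes 0 were upregulated and 4 downregulated (median -1.64, all genes -0.01), against 4.15% and 10.9% of all tested genes. Ift43, a small subunit, was upregulated in sperm by 1.14 (log2 fold change, adjusted p = 0.0148, edgeR). In testes Wdr35 fell by 2.05, Ift140 by 1.79 and Ttc21b by 1.65 on the log2 scale, whereas Tulp3 was higher there. Tulp3 and the IFT-A subunits therefore had opposite signs in testes, a description of these values and not a test.

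Of the ciliary membrane proteins that Tulp3 is known to carry or that share its route, 9 were tested in sperm and 0 were called. Their median log2 fold change was -0.00369, and 8.86% of all tested genes were called there. In testes 10 were tested and 2 were upregulated, against 4.15% of all tested genes. These were the ciliary receptor gene Mchr1 (log2 fold change 2.58, adjusted p = 0.0411, at a mean of 0.0675 CPM in WT and 0.416 CPM in cKO) and Cys1, which encodes cystin (1.28, adjusted p = 9.44e-04). Of the genes of the Hedgehog pathway, which Tulp3 represses, 0 of 7 were called in sperm and 0 of 8 in testes. Over all tested genes, 8.86% were called in sperm and 15.1% in testes. In testes 4 Hedgehog genes passed the adjusted p alone as higher and 2 as lower, against 25% and 28.1% of all tested genes.

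The cullin and elongin partners of SOCS box proteins, the group to which Tulp4 belongs, had 0 of 6 called in either tissue. Over all tested genes, 8.86% were called in sperm and 15.1% in testes. The medians of this list were 0.05 in sperm and -0.24 in testes. In testes 3 of the 6 were lower with an adjusted p below 0.05, against 28.1% of all tested genes. The TAM receptors of phagocytosis and their ligands, receptors to which Tub and Tulp1 can bind, had 0 of 5 called in either tissue. All 5 were higher in testes with an adjusted p below 0.05 and log2 fold changes from 0.67 to 0.87, where 25% of all tested genes were higher by that measure. Of the enzymes and G proteins of phosphoinositide turnover, 1 of 16 was upregulated in sperm and 1 of 15 downregulated in testes, against 7.59% and 10.9% of all tested genes. Both were Plcd4, a phospholipase C of the sperm head. Plcd4 stood at a log2 fold change of 1.38 in sperm (adjusted p = 0.0144) and -1.91 in testes (adjusted p = 0.00453).

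The genes most like each member were found by the root mean square difference of log2 CPM over the 12 libraries, after the mean of each tissue was taken off, among about 11978 protein-coding genes. For Tulp2 they were Ace, which has a germ cell form of angiotensin-converting enzyme (0.104), Dpysl3 (0.119), Clip4 (0.135), Rab3il1 (0.151) and Spata9 (0.152), against a median over all genes of 0.682. Ace stood at 229 ± 59.8 CPM in WT and 498 ± 36.0 in Xap5l KO sperm, and at 57.4 ± 3.61 and 86.0 ± 10.6 in WT and cKO testes. For Tub the nearest genes were Pabpc1, a poly(A)-binding protein gene (0.291), Ppp1r13l (0.298) and Ccpg1os (0.304), against a median of 0.840. For Tulp3 they were Piezo1, a mechanically gated channel gene (0.0881), Fam20c (0.0891) and Map4k4 (0.0926), against a median of 0.419. For Tulp4 they were Zfp592 (0.115) and Immt (0.134), against a median of 0.452.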

How the data were processed

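RNA-seq counts of 12 libraries in 4 groups of 3 were used, with groups taken from the sample labels. The authors trimmed reads with Trimmomatic 0.36, mapped them to GRCm38 with HISAT2 2.1.0 and used StringTie for assembly. They deposited counts per gene as whole numbers, not normalized, in 1 table per tissue. The tool that made the counts, its use of strand and its treatment of multiply mapped reads are not given in the sources used here.

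Each tissue was analysed on its own, with genotype as the only term. Genes were filtered with filterByExpr, scaled by TMM and tested with the quasi-likelihood test of edgeR 4.0.16 (R 4.3.3, limma 3.58.1) with Benjamini-Hochberg adjustment over all genes tested, and DESeq2 1.42.0 was an alternative. The scripts were tested on simulated data. CPM are counts scaled by TMM, and levels between genes were divided by the kb of annotated exons. Library totals limit the precision of low genes such as Tulp1.

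The family members, the lists of related genes and markers and the tests were chosen with earlier results of these data known. The genes named were the family members, the targeted genes, genes sharing exonic bases with a member, up to 3 called genes of each related list in each tissue with the largest change, and the 5 genes most like Tulp2 and 3 most like each other member, of which 1 is not reported here. Fbl was named after its values were seen, because the pseudogene inside Tulp4 resembles it. Annotation came from GENCODE (GRCm38) and promoter windows from RefSeq (GRCm38.p6). Alternatives were other filters, scalings and thresholds, a replicate block, transcript length, 0.5 counts added to ratios, removal of mitochondrial and the 10 most abundant other entries, summed entries with an added number, and leaving out each library.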

Additional observations from a re-analysis of the deposited data

How the results depend on the processing

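Among the fold changes in testes, the 4 tested members kept their direction under all alternatives, and Tub remained downregulated. With no fold change threshold, 4 members were called in Xap5 cKO testes. In Xap5l KO sperm, 0 members were called at an adjusted p-value under 0.01, and leaving out 1 library gave between 0 and 1. The fold change of Tulp4 in sperm turned positive with no filter on low counts (0.0198), with RLE size factors (0.00498) and without the mitochondrial and most abundant entries (0.0339), and ran from -0.25 to 0.22 with 1 library left out. That of Tub in sperm ran from -0.11 to 0.93. The difference in the log2 ratio of Tulp2 to Tulp3 in testes ran from -0.25 to 0.00397, positive without WT testes replicate 1, with exact permutation p-values from 0.1 to 1. With the length of the longest transcript in place of all exons, the level of Tulp2 was 38.5 CPM per kb in WT sperm, 87.9 in Xap5l KO sperm, 58.1 in WT testes and 86.6 in Xap5 cKO testes, and its share of the family 62.0%, 79.5%, 61.5% and 70.5%. The levels are higher because this length is shorter (2153 bases for Tulp2, against 3150), and the shares are lower because the lengths of Tulp3 and Tulp4 shrink more (9342 to 3623 and 18054 to 9687 bases). The cause of the other changes was not tested.

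The deviations of libraries with the same replicate number correlated at -0.081 to 0.149 in sperm and -0.014 to 0.013 in testes. Those with different numbers correlated at -0.138 to 0.178 in sperm and -0.033 to 0.044 in testes. With 3 libraries in each group, these values cannot exclude pairing by number. A fit with the replicate block gave a log2 fold change of 1.22 for Tulp2 in sperm (adjusted p = 0.0348, edgeR) and -1.72 for Tub in testes (adjusted p = 4.24e-04, edgeR), with 1147 genes up and 147 down in sperm against 1589 and 267 without it. Over all genes of the sperm table, the number upregulated ran from 1 to 2402 and the number downregulated from 1 to 443 with 1 library left out, and both were 0 at an adjusted p-value under 0.01. RLE size factors gave 198 downregulated genes in sperm, library size alone 149, and removal of the abundant entries 164. With no fold change threshold, 643 genes were lower in sperm, and 4202 were higher and 4734 lower in testes.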
